A study of Mus musculus with 24 samples.

Results

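The genes described here are 10 components and regulators of meiotic chromosome pairing: Sycp1, Sycp2, Sycp3, Syce1, Syce2, Hormad1, Hormad2, Tex11, Tex12 and Stra8. They were taken as a named group, by symbol, from the RNA-seq count tables of a Tet knockout series, and all 10 were found among the 22926 gene symbols of those tables. Where a symbol had more than 1 line, its first line was used.

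The synaptonemal complex is the protein ladder that holds paired homologous chromosomes together in meiotic prophase. SYCP2 and SYCP3 build its lateral elements along each chromosome axis, SYCP1 forms the transverse filaments that span the gap, and SYCE1, SYCE2 and TEX12 form the central element. HORMAD1 and HORMAD2 mark axes that have not yet paired, TEX11 acts in crossover formation, and STRA8, a retinoic acid responsive factor, acts at the entry into meiosis. In embryonic stem cells (ESC) many germline genes are known to be held low by DNA methylation and by a variant Polycomb complex with E-box and E2F-site binding subunits. Tet enzymes oxidize methylated cytosine, the first step of its removal.

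All libraries came from clones of a mouse ESC line of 129/SVj background (129 derived in the labels) in which eGFP was inserted at the Oct4 locus (Oct4:IRES:eGFP). A single clone, which the authors call WT, was the parent of the edited lines. How each of the WT clones O4.1, O4.2 and O4.13 relates to that parent is not given in the sources used here. Transient CRISPR-Cas9 editing gave Tet1-/- clones, Tet2-/- clones, DKO clones (Tet1-/-:Tet2-/-) and TKO clones (Tet1-/-:Tet2-/-:Tet3-/-), and wild type (WT) clones carried the eGFP insertion alone. Each library was 1 clone at 1 day, either grown with leukemia inhibitory factor (LIF, D0) or after 6 days without LIF (D6). WT clones O4.1, O4.2 and O4.13, Tet2-/- clones Tet2_KO_3.10 and Tet2_KO_3.11, clones DKO_5.11 and DKO_5.12 and clones TKO_8.4 and TKO_8.12 were sequenced on both days. Of the Tet1-/- clones, 2.1 and 2.4 were sequenced on both days, 2.3 with LIF and 2.2 without it. Values of a group are given below in the order O4.1, O4.13, O4.2 for WT, with the lower clone number first for Tet2-/- and DKO and TKO_8.12 before TKO_8.4. The clones of a genotype are separate edited lines, and the spread between them holds differences between clones as well as between cultures. In these bulk samples, fewer cells that express a gene and less RNA per cell cannot be told apart.

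The 24 libraries held 21729346 to 37290208 counts at D0 and 18400463 to 34219640 at D6. Levels are given in CPM, the count relative to the library total after TMM scaling. A count of 3, the upper limit for a gene with none, corresponds to 0.0814 to 0.151 CPM, for counting error alone. Because indels need not remove a transcript, the Tet transcripts checked the labels only in part. Tet2 stood at 20.9 to 23.2 CPM in Tet2-/- and 87.9 to 93.9 CPM in WT at D0, but at 15.9 to 16.6 and 12.3 to 16.0 CPM at D6. At D0 it was called lower in Tet2-/- (-2.08 log2, adjusted p 0.0299) and TKO (-1.86, adjusted p 0.0426), but not in DKO (-1.25, adjusted p 0.280), which stood at 22.3 and 55.7 CPM. Tet1 overlapped between Tet1-/- (93.4 to 358 CPM) and WT (220 to 431 CPM) at D0, and in TKO it stood at 41.7 and 568 CPM. The summed level of 5 pluripotency markers was 3697 to 4224 CPM in every D0 library, and after LIF withdrawal it was highest in Tet2-/- (1880 to 2043 CPM), followed by TKO (1429 to 1526), with 1099 to 1104 for DKO, 771 to 1468 for Tet1-/- and 645 to 1453 for WT. The summed level of 8 markers of differentiated lineages was 157 to 508 CPM in WT and 22.3 to 30.1 CPM in Tet2-/- at D6, from 4.97 to 10.9 CPM over all D0 libraries. Of these 8, 6 were called lower and 2, the neural factors Pax6 and Sox1, higher in Tet2-/- than in WT at D6. Among the WT libraries of D6, clone O4.2 stood apart in these markers, and for several genes values without it are also given. At D6 the genotypes differed in the marker levels, and the part of that difference in the meiotic gene results was not tested.

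Upstream sequence was available for 9 of the 10 genes, with Tex11 not among them. In windows from 250 bases before to 50 bases after the RefSeq start (GRCm38.p6), the E-box CACGTG and the E2F-type hexamer GCGGGA (both strands, no overlap between the motifs) were searched. Sycp3, Hormad1, Tex12, Sycp1 and Syce2 held both motifs in at least 1 window, while Sycp2, Stra8, Syce1 and Hormad2 held neither. Of 32851 mouse promoter windows of the same length, 7.15% held the E-box, 20% the E2F-type hexamer and 1.99% both. The 250 bases upstream of 3 genes with both motifs, which changed differently in the comparisons below, and of Hormad2, which held neither and was called lower in Tet2-/-, are shown with matched motifs in capitals. They lie at chr10:88459337-88459586 on the plus strand, chr3:95559427-95559676 on the plus strand, chr9:50561269-50561518 on the minus strand and chr11:4441083-4441332 on the minus strand.
Sycp3: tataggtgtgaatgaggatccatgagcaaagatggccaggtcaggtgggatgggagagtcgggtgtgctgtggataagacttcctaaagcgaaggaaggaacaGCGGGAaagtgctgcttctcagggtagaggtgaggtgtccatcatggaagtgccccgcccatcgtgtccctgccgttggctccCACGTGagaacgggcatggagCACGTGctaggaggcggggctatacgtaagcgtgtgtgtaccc
Hormad1: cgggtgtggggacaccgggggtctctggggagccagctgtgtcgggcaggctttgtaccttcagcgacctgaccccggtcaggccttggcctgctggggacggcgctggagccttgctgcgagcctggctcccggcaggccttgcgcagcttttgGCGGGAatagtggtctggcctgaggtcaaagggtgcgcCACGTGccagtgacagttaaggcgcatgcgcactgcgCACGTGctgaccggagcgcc
Tex12: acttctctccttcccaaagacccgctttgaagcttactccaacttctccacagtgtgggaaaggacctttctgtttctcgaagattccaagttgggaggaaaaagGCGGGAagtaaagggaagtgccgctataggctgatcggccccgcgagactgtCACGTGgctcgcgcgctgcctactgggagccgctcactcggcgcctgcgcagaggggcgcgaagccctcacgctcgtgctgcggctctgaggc
Hormad2: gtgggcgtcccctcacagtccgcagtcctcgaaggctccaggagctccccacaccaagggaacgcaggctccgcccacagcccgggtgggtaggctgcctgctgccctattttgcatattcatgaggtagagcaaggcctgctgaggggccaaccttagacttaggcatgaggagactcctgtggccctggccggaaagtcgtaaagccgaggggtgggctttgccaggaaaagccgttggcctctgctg

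In the Sycp3 window the E-boxes begin 64 and 43 bases before the start and the E2F-type hexamer 147 bases before it. The Hormad1 E-boxes begin 57 and 20 bases before the start, and the single E-box of Tex12 begins 93 bases before it. These windows come from another genome build than the one used for counting, and binding at the motifs was not measured.

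In undifferentiated cells, Hormad2, Tex11 and Tex12 were lower in Tet2-/- than in WT. On LIF withdrawal, Sycp3 rose in every genotype, although in WT this rested on clone O4.2. Syce1 and Hormad1 fell in WT, Tet1-/- and DKO, and with clone as a block Syce1 also fell in Tet2-/-. Of the 11 clones sequenced at both days, Syce1 was lower at D6 in 10 and Hormad1 in all 11. Syce1 and Tex11 kept more of their D0 level in Tet2-/- and TKO than in WT, by a direct test of the difference. Levels were compared by the edgeR quasi-likelihood test, and "called" stands for a log2 change over 1 in size with an adjusted p under 0.05, by the Benjamini-Hochberg procedure over every gene tested.

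**Figure D1:**
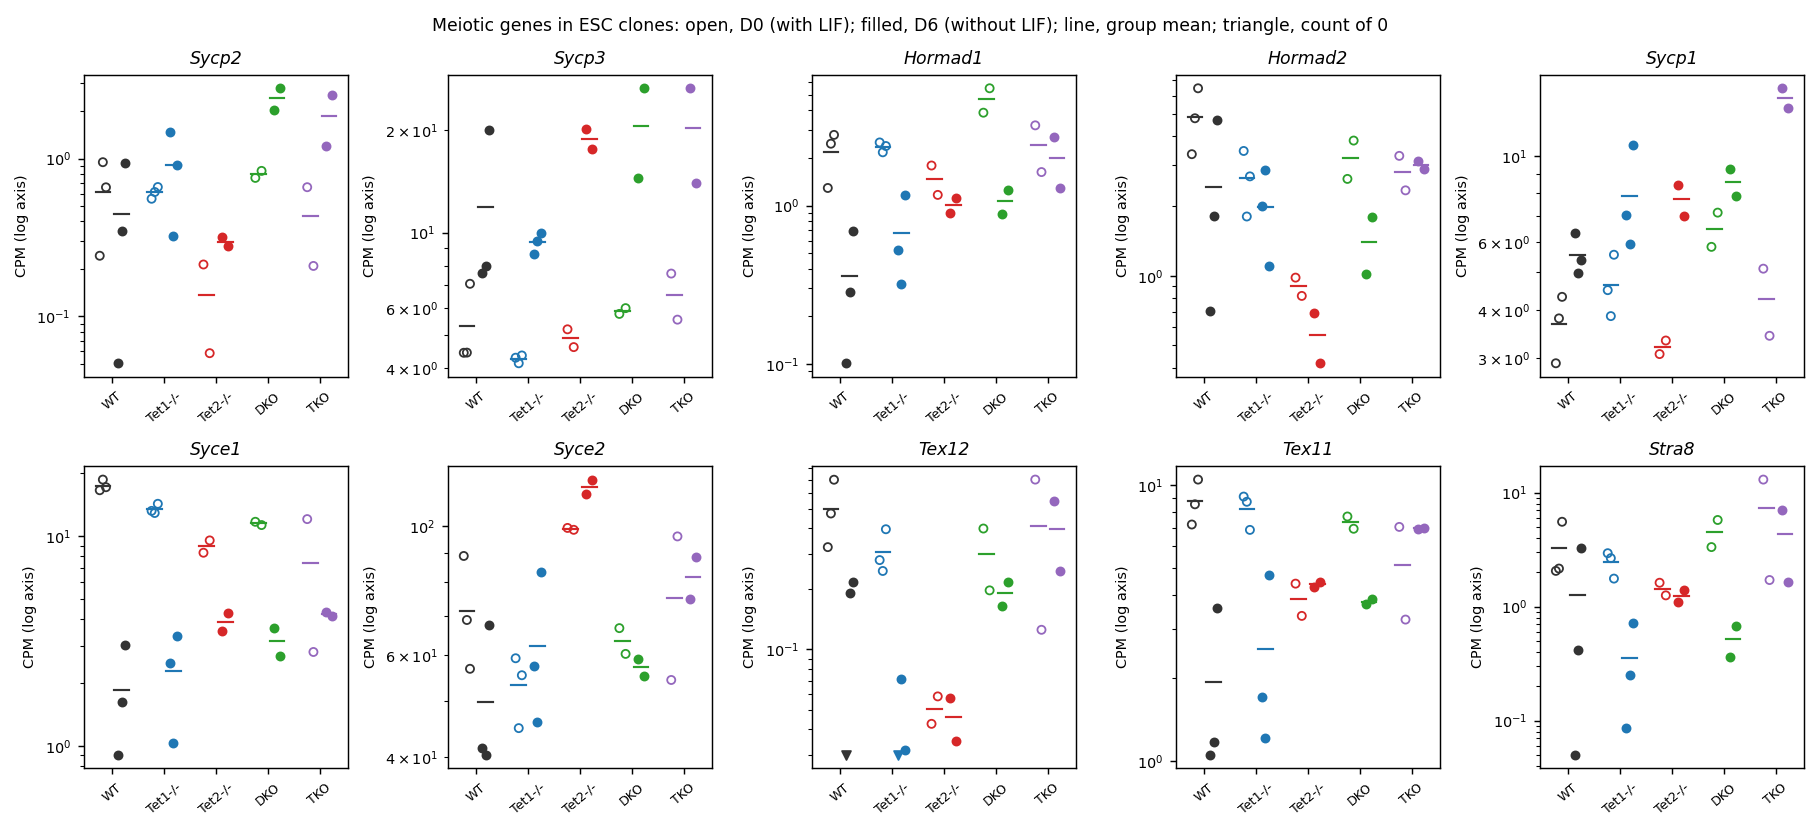
Level of the 10 meiotic genes in every library, in CPM on a log axis, by genotype (colour), with open points for D0, filled points for D6, short lines for group means (not drawn for groups with a count of 0) and triangles for counts of 0. Sycp3 is higher at D6 in all genotypes, Syce1 is lower at D6 in every genotype mean, and Tex12 stays below 0.71 CPM throughout.

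Sycp2 encodes a lateral element protein and lies on chromosome 2 (178079998 to 178142390, minus strand, mm9). At D0 it measured 0.242, 0.9499 and 0.658 CPM in WT clones O4.1, O4.13 and O4.2 and 0.557, 0.615 and 0.661 CPM in Tet1-/-. Tet2_KO_3.10 and Tet2_KO_3.11 stood at 0.213 and 0.0584 CPM, DKO_5.11 and DKO_5.12 at 0.755 and 0.837, and TKO_8.12 and TKO_8.4 at 0.659 and 0.209. Both Tet2-/- clones were below every WT clone, with 5 and 2 counts, and the change of -2.28 log2 (SE 0.709) missed the threshold at an adjusted p of 0.0599. At D6 the levels were 0.0504, 0.350 and 0.944 CPM in WT, 0.321 to 1.48 in Tet1-/-, 0.317 and 0.279 in Tet2-/-, 2.04 and 2.79 for DKO and 1.198 and 2.52 for TKO. Sycp2 rose from D0 to D6 in TKO by 2.11 log2 (adjusted p 0.0295), which was lost without TKO_8.4 of either day, at 1.52 log2 (D0) and 1.45 (D6) with adjusted p up to 0.217, and was 3.15 without TKO_8.12 at D0. With clone as a block it also rose in DKO, by 1.58 log2 (adjusted p 0.0346).

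Sycp3, the axis protein used as a marker of meiotic chromosomes, lies on chromosome 10 (87922314 to 87935981, plus strand, mm9). With LIF it measured 4.44, 4.45 and 7.08 CPM in WT clones O4.1, O4.13 and O4.2, 4.14 to 4.36 in Tet1-/-, 5.20 and 4.62 in Tet2-/-, 5.78 and 6.00 for DKO and 7.58 and 5.56 for TKO. At D6 it measured 7.61, 7.96 and 19.996 CPM in the same WT clones, 8.68 to 9.97 in Tet1-/-, 20.1 and 17.6 in Tet2-/-, 14.5 and 26.5 for DKO and 26.5 and 13.96 for TKO. Each of the 11 clones sequenced at both days was higher at D6. The increase was 1.16 log2 in WT (SE 0.328, adjusted p 0.00451), 1.13 in Tet1-/- (adjusted p 0.00607) and 1.94 in Tet2-/- (adjusted p 9.40e-04). DKO rose by 1.80 (adjusted p 0.00102) and TKO by 1.62 (adjusted p 0.00260). The WT increase rested on clone O4.2, since without it the change was 0.55 log2 (adjusted p 0.0846), and without TKO_8.12 at D6 the TKO increase was 1.11 log2 (adjusted p 0.0529). Sycp3 shares 660 of its 1264 exonic bases with Chpt1 on the opposite strand, and the library kit does not mark strand, so reads of those bases cannot be told apart. Chpt1, an enzyme of phosphatidylcholine synthesis, was not called in any of the 23 comparisons, and its D6 against D0 changes ran from -0.41 to 0.10 log2. Its level was 10.1 to 15.3 CPM at D0, above that of Sycp3, and 7.61 to 14.9 CPM at D6. The part of Chpt1 reads in the Sycp3 levels and changes was not tested.

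Hormad1 marks unsynapsed axes and lies on chromosome 3 (95363599 to 95391593, plus strand, mm9). At D0 it measured 1.29, 2.46 and 2.80 CPM in WT clones O4.1, O4.13 and O4.2, 2.17 to 2.51 in Tet1-/-, 1.79 and 1.17 in Tet2-/-, 3.86 and 5.51 for DKO and 3.21 and 1.63 for TKO. Both DKO clones lay above all WT clones, at 1.09 log2 (SE 0.347, adjusted p 0.191). At D6 it measured 0.101, 0.286 and 0.690 CPM in WT, 0.321 to 1.17 in Tet1-/-, 0.893 and 1.12 in Tet2-/-, 0.887 and 1.25 for DKO and 2.70 and 1.29 for TKO. All 11 clones sequenced at both days were lower at D6. The change was -2.53 log2 (SE 0.523, adjusted p 3.32e-04) in WT, -1.80 in Tet1-/- (adjusted p 0.00311) and -2.12 in DKO (adjusted p 0.00351). It was -0.55 in Tet2-/- and -0.31 in TKO, which did not pass the test. The difference of these changes from WT was 1.99 log2 in Tet2-/- (adjusted p 0.0850) and 2.23 in TKO (adjusted p 0.0846), and with clone as a block both were called, at 2.13 (adjusted p 0.0220) and 2.38 (adjusted p 0.0216).

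Hormad2, the second HORMA domain protein of the axis, lies on chromosome 11 (4245817 to 4341108, minus strand, mm9). With LIF, levels were 3.35, 4.79 and 6.46 CPM in WT clones O4.1, O4.13 and O4.2, 1.80 to 3.46 in Tet1-/-, 0.981 and 0.818 in Tet2-/-, 2.62 and 3.84 for DKO and 3.30 and 2.34 for TKO. The Tet2-/- clones were below every other library of that day. The change from WT was -2.46 log2 (SE 0.379, adjusted p 0.00687), or 5.51-fold lower. It lost its call when either Tet2-/- clone was left out, which leaves 1 Tet2-/- library, and the calls over all genes dropped too. The change lay between -2.67 and -2.20 log2 whichever D0 library was left out. At D6 Hormad2 measured 0.706, 1.81 and 4.72 CPM in WT, 1.10 to 2.86 in Tet1-/-, 0.691 and 0.418 in Tet2-/-, 1.02 and 1.79 for DKO and 3.14 and 2.89 for TKO. The change in Tet2-/- was then -2.14 log2 (SE 0.718, adjusted p 0.0464). It depended on WT clone O4.2, without which it was -1.21 (adjusted p 0.129), and leaving out any of 8 other D6 libraries (both clones of Tet2-/-, DKO and TKO, Tet1-/- clone 2.1 and WT clone O4.13) also removed the call (adjusted p up to 0.243). With clone as a block, Hormad2 fell from D0 to D6 in WT, Tet1-/- and DKO, with log2 changes of -1.24, -1.02 and -1.22 and adjusted p-values of 0.00299, 0.0340 and 0.0143. Without the block none of these 3 passed in the full data. Without WT clone O4.2 at D6, and with no block, Hormad2 was called in WT at -1.90 (adjusted p 0.00124), in place of -0.99, and in DKO at -1.19 (adjusted p 0.0386).

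Sycp1, which encodes the transverse filament protein, lies on chromosome 3 (102622422 to 102740023, minus strand, mm9). At D0 it measured 2.91, 3.80 and 4.32 CPM in WT clones O4.1, O4.13 and O4.2, 3.85 to 5.55 in Tet1-/-, 3.07 and 3.33 in Tet2-/-, 5.82 and 7.14 for DKO and 5.11003 and 3.43 for TKO. At D6 it measured 6.30, 4.97 and 5.37 CPM in WT, 5.93 to 10.7 in Tet1-/-, 8.44 and 7.01 in Tet2-/-, 9.26 and 7.90 for DKO and 15.0 and 13.3 for TKO. The TKO clones were the highest of all at D6, and each of the 11 clones sequenced at both days was higher then than at D0. Sycp1 rose in Tet2-/- by 1.27 log2 (SE 0.278, adjusted p 0.00145) and in TKO by 1.72 (SE 0.277, adjusted p 6.02e-05), and it kept both calls whichever library was left out. In WT the change was 0.59 log2 (adjusted p 0.0293), under the fold threshold. TKO against WT at D6 gave 1.36 log2 with an adjusted p of 0.0641, and with clone as a block the rise was larger in TKO than in WT by 1.15 log2 (adjusted p 0.0458).

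Syce1, a central element protein, lies on chromosome 7 (147963128 to 147973753, minus strand, mm9). At D0 the levels were 16.5, 18.6 and 17.1 CPM in WT clones O4.1, O4.13 and O4.2, 12.9 to 14.2 in Tet1-/-, 8.32 and 9.52 in Tet2-/-, 11.7 and 11.3 for DKO and 12.03 and 2.80 for TKO_8.12 and TKO_8.4. Every knockout clone was below every WT clone, although no knockout was called by edgeR in the full data, the largest change being -1.23 log2 in TKO (adjusted p 0.0685). That change was called by DESeq2 (-1.23, adjusted p 0.0116) and by edgeR without the filter on low counts (adjusted p 0.0329). Without TKO_8.12 that change was -2.63 log2 (adjusted p 3.92e-06), a comparison of 1 TKO library in which the spread comes from the other groups. At D6 Syce1 measured 0.908, 1.62 and 3.01 CPM in WT, 1.04 to 3.35 in Tet1-/-, 3.51 and 4.29 in Tet2-/-, 3.65 and 2.69 for DKO and 4.34 and 4.15 for TKO. The order was thus turned over, with both Tet2-/- and both TKO clones above every WT clone. Syce1 fell in WT, with a log2 change of -3.21 (SE 0.445, adjusted p 4.96e-06), as it did in Tet1-/- at -2.54 (adjusted p 4.99e-05) and DKO at -1.86 (adjusted p 0.00487, or 0.0553 without DKO_5.12 at D6). Its change was -1.20 in Tet2-/- (adjusted p 0.0650, or 0.0345 with clone as a block) and -0.81 in TKO (adjusted p 0.192). The TKO clones differed here, and without TKO_8.4 at D0, whose level was 2.80 CPM then and 4.15 at D6, Syce1 fell in TKO, with a log2 change of -1.50 (adjusted p 0.0108).

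Syce2, another central element protein, had the highest counts of the 10 genes and lies on chromosome 8 (87396010 to 87412120, plus strand, mm9). At D0 it measured 88.8, 68.9 and 56.7 CPM in WT clones O4.1, O4.13 and O4.2, 44.8 to 59.2 in Tet1-/-, 99.3 and 98.5 in Tet2-/-, 66.7 and 60.2 for DKO and 54.3 and 96.0 for TKO. At D6 it measured 41.4, 40.4 and 67.5 CPM in WT, 45.9 to 83.4 in Tet1-/-, 114 and 120 in Tet2-/-, 58.9 and 55.2 for DKO and 74.9 and 88.5 for TKO. Tet2-/- held the highest values at both days. At D6 Syce2 was higher in Tet2-/- than in WT by 1.21 log2 (SE 0.256, adjusted p 0.00965), or 2.32-fold, and leaving out either Tet2-/- clone removed the call (adjusted p up to 0.0818). Its changes from D0 to D6 lay between -0.52 and 0.24 log2, and none was called.

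Tex12, the partner of SYCE2 in the central element, lies on chromosome 9 (50365253 to 50369373, minus strand, mm9) and had at most 17 counts in a library. With LIF it measured 0.323, 0.475 and 0.699 CPM in WT clones O4.1, O4.13 and O4.2, 0.246 to 0.397 in Tet1-/-, 0.400 and 0.197 for DKO and 0.701 and 0.125 for TKO. The Tet2-/- clones had 1 and 2 counts (0.0427 and 0.0584 CPM). From pooled counts of 36 and 3, WT was 9.58 times Tet2-/- (exact 95% counting interval 3.03 to 48.6). That interval, like the one given below for Tet1-/-, holds counting error alone and leaves out the spread between clones. The fitted change of -3.16 log2 (SE 0.823) was called (adjusted p 0.0338). The call was lost without either Tet2-/- clone, WT clone O4.2 or O4.13, or Tet1-/- clone 2.3 (adjusted p up to 0.208). At D6 Tex12 had too few counts for the test, at 0, 0.191 and 0.218 CPM in WT, 0 to 0.0714 in Tet1-/-, 0.0576 and 0.0349 in Tet2-/-, 0.164 and 0.217 for DKO and 0.549 and 0.246 for TKO. In the fit of both days it fell in WT, with a log2 change of -1.72 (adjusted p 0.0284), and the call was lost without WT clone O4.2 at D0 or O4.1 at D6 (adjusted p up to 0.113). In Tet1-/- the pooled counts went from 22 to 3, a ratio of 9.56 (interval 2.87 to 49.9, adjusted p of the fit 0.00518).

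Tex11 acts with recombination proteins in crossover formation and lies on the X chromosome (98033987 to 98255006, minus strand, mm9). Its D0 levels were 7.19, 8.51 and 10.5 CPM in WT clones O4.1, O4.13 and O4.2, 6.87 to 9.07 in Tet1-/-, 4.39 and 3.36 in Tet2-/-, 7.69 and 6.94 for DKO and 7.05 and 3.26 for TKO. Both Tet2-/- clones and both TKO clones were below all WT clones. The change was -1.20 log2 in Tet2-/- (SE 0.292, adjusted p 0.0280), or 2.29-fold lower. It lost its call in the fit of all libraries (adjusted p 0.144) and without WT clone O4.2 or WT clone O4.13. The call was also lost without either Tet2-/- clone, which leaves 1 Tet2-/- library, and the calls over all genes dropped too in those fits. The change lay between -1.40 and -0.998 log2 whichever D0 library was left out. At D6 Tex11 measured 1.06, 1.18 and 3.59 CPM in WT, 1.21 to 4.73 in Tet1-/-, 4.29 and 4.46 in Tet2-/-, 3.71 and 3.85 for DKO and 6.94 and 7.01 for TKO. All Tet2-/-, DKO and TKO clones then lay above every WT clone. Tex11 fell in WT, with a log2 change of -2.15 (SE 0.444, adjusted p 3.34e-04), and in Tet1-/-, at -1.68 (adjusted p 0.00232), while the changes were 0.18 in Tet2-/-, -0.95 in DKO and 0.44 in TKO. Tex11 has 2 lines in the tables, and the first, used here, held 76.3% of the counts of the other.

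Stra8, the meiotic entry factor, lies on chromosome 6 (34870163 to 34889342, plus strand, mm9). At D0 it measured 2.06, 2.16 and 5.55 CPM in WT clones O4.1, O4.13 and O4.2, 1.76 to 2.94 in Tet1-/-, 1.62 and 1.26 in Tet2-/-, 3.33 and 5.76 for DKO and 13.02 and 1.71 for TKO_8.12 and TKO_8.4. The TKO clones were thus the highest library and among the lowest, and no knockout was called. At D6 it measured 0.0504, 0.414 and 3.30 CPM in WT, 0.0871 to 0.726 in Tet1-/-, 1.09 and 1.39 in Tet2-/-, 0.361 and 0.678 for DKO and 7.09 and 1.66 for TKO. TKO_8.12 and WT clone O4.2 were the highest of their groups at both days. Stra8 fell in Tet1-/- and DKO, with log2 changes of -2.79 (SE 0.972, adjusted p 0.0178) and -3.096 (SE 1.12, adjusted p 0.0251). In WT the change was -1.34 (adjusted p 0.173), and with clone as a block it was -1.90 (adjusted p 0.0152). Without WT clone O4.2 at D6, and with no block, Stra8 fell in WT, with a log2 change of -3.62 (adjusted p 0.00382). WT clones O4.1 and O4.13 then held 1 and 13 counts at D6. The Tet1-/- call was lost without clone 2.1 or 2.2 at D6 (adjusted p up to 0.0789), and the DKO call without DKO_5.12 at D0 or either DKO clone at D6 (adjusted p up to 0.132).

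Whether loss of Tet proteins alters these genes in pluripotent cells was addressed by each knockout against WT at D0. In Tet2-/-, 3 of the 10 genes were called, all lower (Hormad2, Tex11 and Tex12), beside 3.19% of 14456 genes in either direction and 2.37% lower. The median change of the 10 genes was -1.09 log2 in Tet2-/-, -0.37 in Tet1-/-, -0.03 in DKO and -0.10 in TKO, with -0.01 to 0.02 over all genes. By edgeR no member was called in Tet1-/-, DKO or TKO, where 0.00692%, 0.0346% and 3.15% of genes were called and 2, 2 and 3 of the 10 had an unadjusted p under 0.05, as did 1828, 2081 and 3813 of the 14456 genes. DESeq2, which called 3.47% of genes in Tet2-/- and 3.38% in TKO, added Sycp2 in Tet2-/- and Syce1 in TKO, both lower, as did edgeR without the filter (2.76% and 2.56% of genes). The TKO clones differed widely. Without TKO_8.4, Stra8 was called higher in TKO at 1.99 log2 (adjusted p 0.00226), and without TKO_8.12, Syce1 and Tex11 were called lower, at -2.63 and -1.42 (adjusted p 3.92e-06 and 0.00310). Each of these fits has 1 TKO library, assumed to vary like the other groups, and the share of all genes called in TKO was 7.76% without TKO_8.4 and 5.77% without TKO_8.12. With either TKO clone left out, Sycp2 (-2.29 log2) and Stra8 (-1.22 and -1.21) were also called in Tet2-/- and Hormad1 (1.09) in DKO, while the shares of all genes called went up to 5.31% and 5.28% in Tet2-/- and 1.59% in DKO. Summed markers of 2-cell-like cells were 0.469 to 0.760 CPM in Tet2-/- and 0.165 to 0.627 in TKO at D0, with 1.70 to 4.23 in WT, and summed germ cell markers were 93.7 to 109, 80.4 to 110 and 123 to 157 CPM. Tcstv1, Zscan4c, Zscan4d and Zfp352 made up the first sum, of which 1 was at 0 in both Tet2-/- clones. The part of these populations in the meiotic gene results was not tested.

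**Figure D2:**
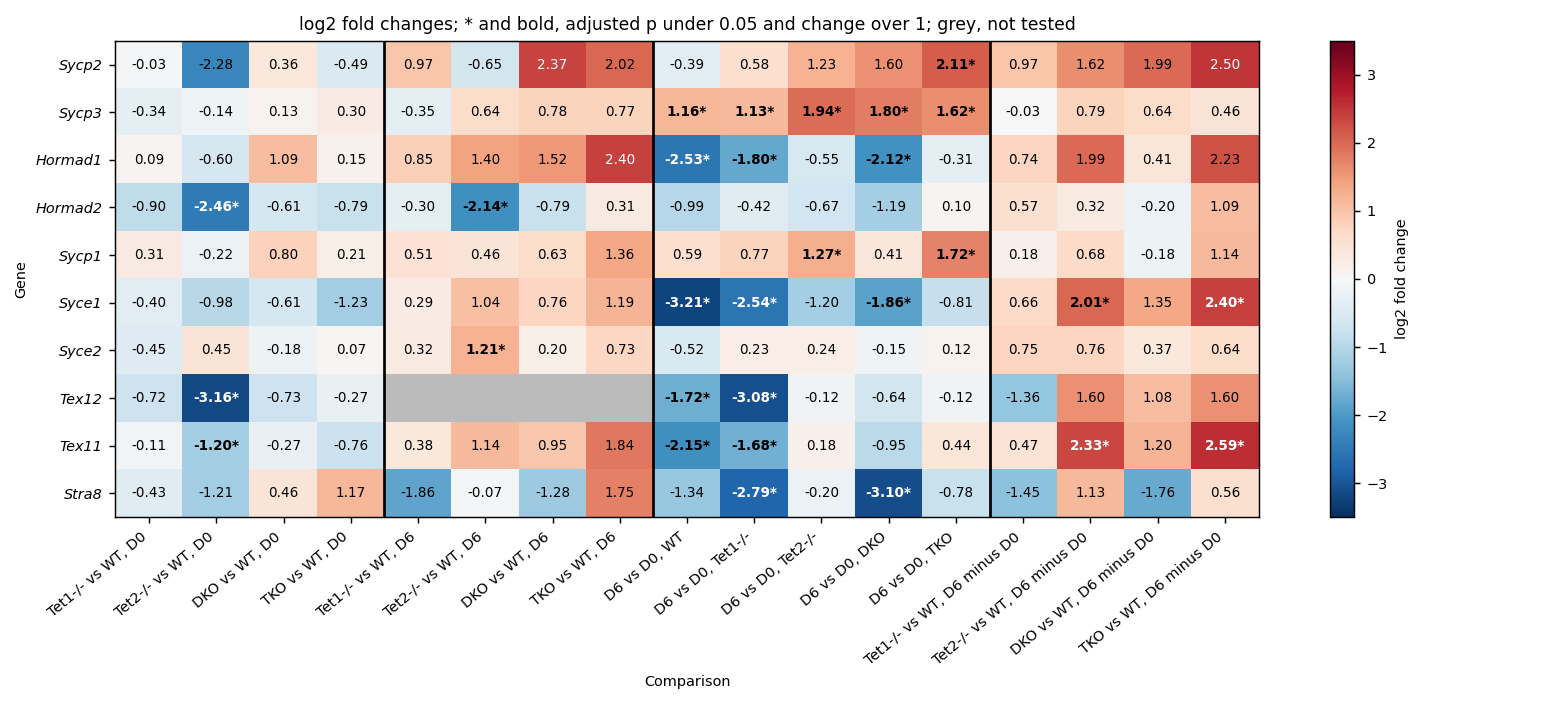
Fitted log2 fold change of each meiotic gene (rows) in the comparisons of knockouts with WT, of D6 with D0 and of the effect of a knockout between days (columns), with colour for size and direction, bold and asterisk for called values and grey for Tex12, which was not tested at D6. The called values at D0 are confined to the Tet2-/- column, and the called falls from D0 to D6 to the WT, Tet1-/- and DKO columns.

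After LIF withdrawal, each knockout was compared with WT cells of the same day, and 9 of the 10 genes could be tested. In Tet2-/-, Syce2 was called higher and Hormad2 lower, beside 14.3% of 15435 genes called in either direction, 4.81% higher and 9.45% lower. In Tet1-/-, DKO and TKO no member was called by the edgeR fit of the D6 libraries with the filter, and neither was any other gene (0%). Of the members, 1, 3 and 6 of the 9 had an unadjusted p under 0.05, as did 1949, 2251 and 3629 genes in all. The median change of the 9 genes was 1.36 log2 in TKO, 0.76 in DKO, 0.64 in Tet2-/- and 0.32 in Tet1-/-, with -0.03 to 0.02 over all genes. Summed germ cell markers at D6 were 150.0 to 217 CPM in TKO, 105 to 114 in Tet2-/- and 77.9 to 130 in WT, and summed 2-cell-like markers 0.399 to 3.66 CPM in TKO, 2.82 to 4.90 in DKO and 0.181 to 0.454 in WT, with 1 of the 4 genes at 0 in every WT clone. Their part in the meiotic gene results was not tested. With DESeq2, Hormad1, Sycp1 and Tex11 were called higher in TKO, at 2.45, 1.37 and 1.85 log2 (adjusted p 0.0146, 7.91e-05 and 0.0247), beside 3.05% of all genes. The edgeR fit of all libraries called the same genes in TKO, at 2.38, 1.35 and 1.83 log2 (adjusted p 0.0187, 0.00735 and 0.0264), beside 3.29% of genes. Without the filter, edgeR called Sycp1 in TKO (1.36 log2, adjusted p 0.0425), beside 0.455% of genes.

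One WT library stood apart at D6. Clone O4.2 was the highest WT clone for 9 of the 10 genes at D6 and for 7 of the 10 at D0. The like share over all genes was not counted, so these counts are not a result about the meiotic genes. The summed pluripotency markers of clone O4.2 were 1453 CPM, against 645 and 779 CPM in clones O4.1 and O4.13, and its summed differentiation markers 157 CPM against 447 and 508. Tet1-/- clone 2.4 stood apart at D6 in a like way. Its sums were 1468 CPM, against 1094 and 771 CPM in clones 2.1 and 2.2, for pluripotency and 114 CPM against 270 and 346 for differentiation. Without WT clone O4.2, 5 of the 9 genes were called in Tet2-/- (Hormad1, Syce1, Syce2, Sycp3 and Tex11, all higher), beside 17.1% of genes. In TKO, 8 were then called (all except Hormad2, each higher), beside 4.67% of genes, from 1.02 log2 for Syce2 to 4.06 for Stra8. Tet1-/- and DKO had no member called without it, beside 0% and 0.0389% of genes. For Hormad1 the change in TKO went from 2.402 to 3.23 log2 (adjusted p 0.0244) and for Tex11 from 1.84 to 2.65 (adjusted p 0.0214), whereas for Sycp1 it went from 1.36 to 1.35. Stra8 moved further, in TKO from 1.75 to 4.06 log2 (adjusted p 0.0335), and its change turned in direction without being called in Tet2-/- (-0.07 to 2.24), Tet1-/- (-1.86 to 0.45) and DKO (-1.28 to 1.03). Sycp2 went from 2.02 to 3.09 log2 in TKO (adjusted p 0.0387), and from -0.65 to 0.41 in Tet2-/- with no call. Hormad2 in Tet1-/- (-0.30 to 0.62) and DKO (-0.79 to 0.14) and Sycp3 in Tet1-/- (-0.35 to 0.27) also turned, with no call. WT clones O4.1 and O4.13, which remain in these fits, held 1 and 13 counts of Stra8, 2 and 9 of Hormad1 and 1 and 11 of Sycp2.

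**Figure D3:**
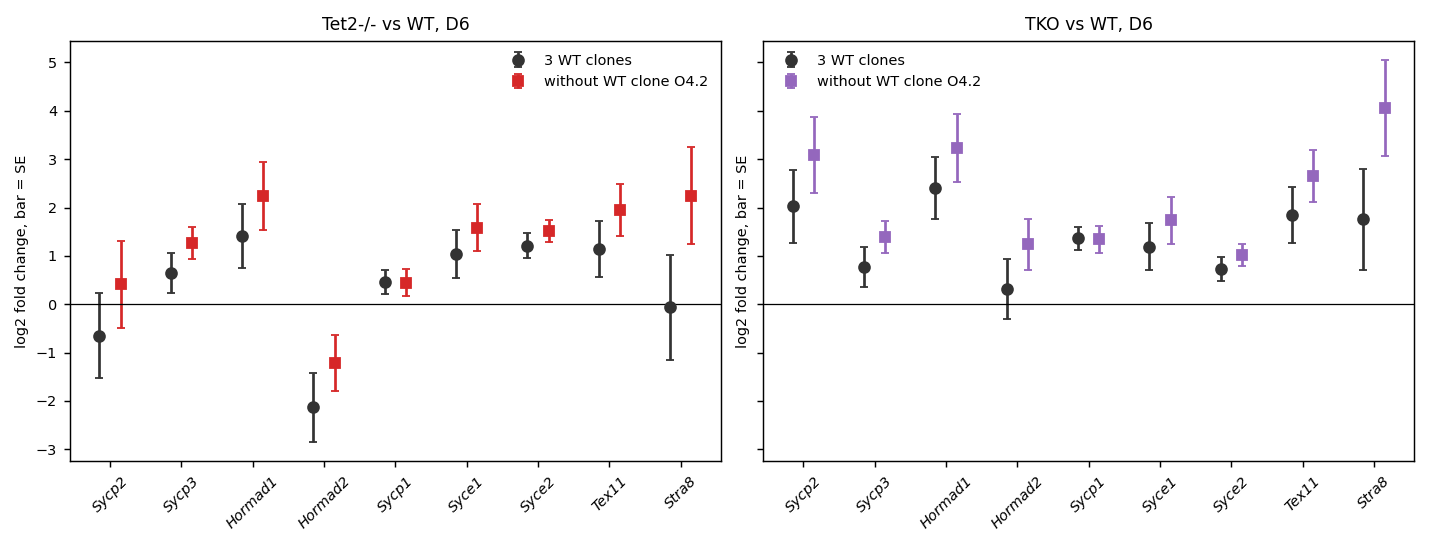
Fitted log2 fold change against WT at D6, with its standard error as a bar, for 9 meiotic genes in Tet2-/- and TKO, from all 3 WT clones (circles) and without WT clone O4.2 (squares). Most squares lie above the circles, and Sycp1 hardly moves.

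The change on LIF withdrawal was tested within each genotype. In WT, Sycp3 rose and 4 genes fell (Hormad1, Syce1, Tex11 and Tex12), beside 34% of 15639 genes called, 20.7% higher and 13.3% lower. In Tet1-/-, Sycp3 rose and 5 fell (the same 4 and Stra8), beside 31.1%, 19.9% and 11.2% of genes. In DKO, Sycp3 rose and Hormad1, Syce1 and Stra8 fell, beside 29.2%, 18.6% and 10.6%. In Tet2-/-, Sycp1 and Sycp3 rose and none was called lower by edgeR without a block, beside 19.1%, 12.7% and 6.44%, and in TKO, Sycp1, Sycp2 and Sycp3 rose and none fell, beside 25.4%, 16.8% and 8.63%. The 10 genes had a median change of -1.17 log2 in WT, -1.05 in Tet1-/- and -0.79 in DKO, against 0.03 in Tet2-/- and 0.11 for TKO, while that of all genes was between -0.01 and 0.01. The same clones were sequenced at both days except in Tet1-/-, and with clone as a block the calls that were added are the ones given with each gene above. Among them is Syce1 in Tet2-/- (-1.20 log2, adjusted p 0.0345), which DESeq2 also called lower (-1.18, adjusted p 0.0460, beside 18.9% of genes). With the block, 34.1% of all genes were called for WT, 29.5% for DKO, 27% for Tet1-/- and 19.4% for Tet2-/-.

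**Figure D4:**
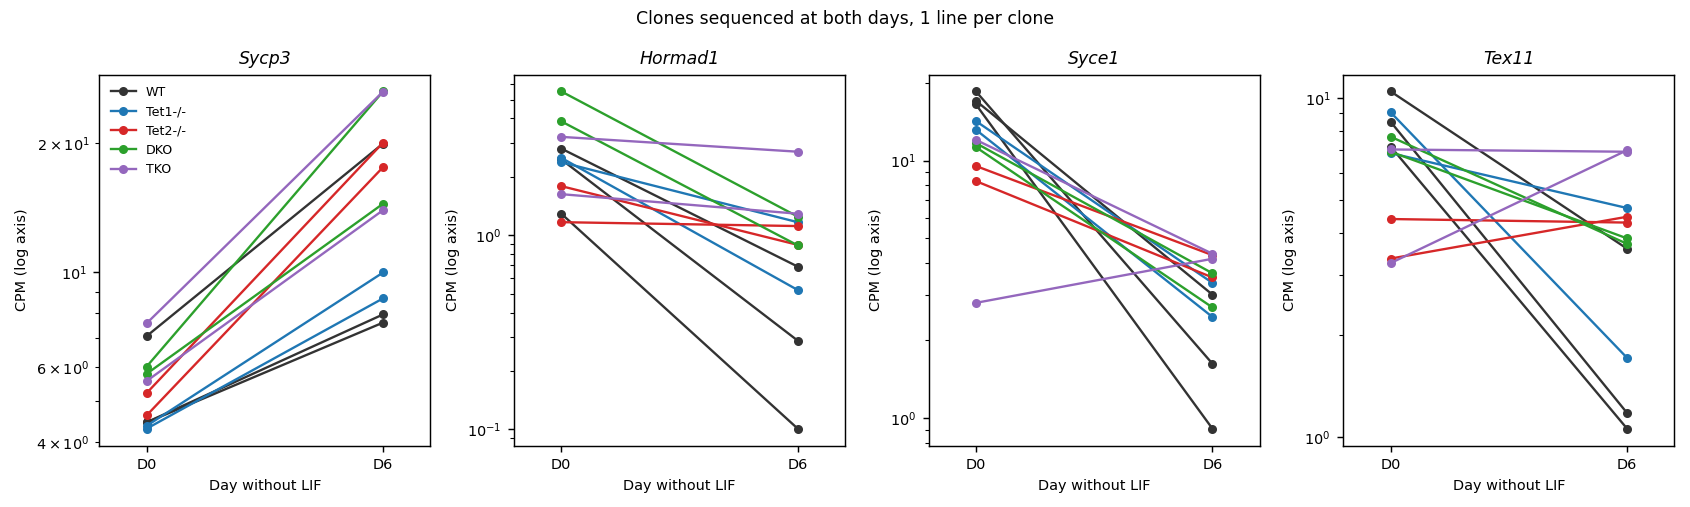
Level of Sycp3, Hormad1, Syce1 and Tex11 in CPM on a log axis at D0 and D6, with 1 line for each of the 11 clones sequenced at both days, coloured by genotype. Sycp3 rises and Hormad1 falls in every clone, and the Syce1 and Tex11 lines of Tet2-/- and TKO are flatter than those of WT. Syce1 rises in TKO_8.4, and Tex11 rises in TKO_8.4 (3.26 to 7.01 CPM) and Tet2_KO_3.11 (3.36 to 4.46 CPM).

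Whether a knockout acted differently at the 2 days was tested directly, as the difference between its effect at D6 and at D0. In Tet2-/-, Syce1 and Tex11 were called, at 2.01 (SE 0.658, adjusted p 0.0444) and 2.33 log2 (SE 0.681, adjusted p 0.0284), beside 8.68% of genes in either direction and 3.54% higher. In TKO the same genes were called, at 2.402 (SE 0.665, adjusted p 0.0390) and 2.59 log2 (SE 0.678, adjusted p 0.0322), beside 3.58% and 1.84%. Both comparisons share the WT libraries. In Tet1-/- and DKO none of the 10 was called by edgeR without a block in the full data, and no gene of the table was (0%). There 1200 and 1255 genes had an unadjusted p under 0.05, of which 1 and 0 were members. The Syce1 call in Tet2-/- remained when TKO_8.4 or TKO_8.12 of either day, Tet1-/- clone 2.2 or 2.4 at D6 or WT clone O4.2 at D6 was left out, and was lost without any of the other 17 libraries (adjusted p up to 0.151). In TKO the Syce1 call was lost without any of 16 libraries (adjusted p up to 0.0915, log2 differences from 1.70 without TKO_8.4 at D0 to 3.80 without TKO_8.12 at D0) and remained without TKO_8.12 or Tet1-/- clone 2.1 at D0, or without any DKO or Tet1-/- clone or WT clone O4.2 at D6. Tex11 lost its call in both knockouts without WT clones O4.13 or O4.2 of D0, or O4.13 or O4.1 of D6, in Tet2-/- also without any Tet2-/- library (adjusted p up to 0.105), and in TKO also without TKO_8.4 at D0 or either TKO clone at D6 (adjusted p up to 0.0938). With clone as a block, Hormad1 was called in addition in both knockouts and Sycp1 in TKO, beside 10.3% and 5.01% of genes. Without WT clone O4.2 at D6, and with no block, calls were gained for Hormad1 (2.81 log2), Syce2 (1.05) and Sycp3 (1.39) in Tet2-/- and for Hormad1 (3.05), Hormad2 (1.995) and Sycp2 (3.55) in TKO, beside 13.4% and 7.33% of genes.

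Single knockouts that differ from WT need not differ from each other, so the other genotypes were compared with Tet2-/-. At D0, Hormad2 was higher than in Tet2-/- in Tet1-/- (1.57 log2, adjusted p 0.0160), DKO (1.85, 0.0124) and TKO (1.67, 0.0253). Tet1-/- had 3 genes called, with Sycp2 (2.25) and Tex11 (1.09) besides, beside 6.19% of genes. DKO had 4, with Sycp2 (2.64), Hormad1 (1.69) and Sycp1 (1.02) besides, beside 6.36% of genes, and TKO had Hormad2 alone by edgeR, beside 4.19%. Stra8 was also called higher in TKO by DESeq2 (2.37 log2, adjusted p 0.0458, beside 4.64% of genes) and by edgeR without the filter (2.37, adjusted p 0.0258, beside 3.6%). Without TKO_8.4, which leaves 1 TKO library, Hormad1 (1.16 log2), Stra8 (3.21, adjusted p 1.40e-04, from 2.38), Sycp2 (2.39) and Tex12 (3.64) were called higher in TKO, beside 13.1% of genes. Without TKO_8.12, Syce1 was called lower, at -1.66 log2 (adjusted p 2.36e-04) in place of -0.25, beside 3.65% of genes. With either clone left out, Tex12 was also called higher in Tet1-/- and DKO (2.44 log2 in each), and Stra8 in DKO (1.67), beside 7.91% to 8.52% of genes. DKO lacks Tet2 as well, so its Hormad2 levels of 2.62 and 3.84 CPM stood against 0.981 and 0.818 CPM in clones that lack Tet2 only. At D6, DKO was the one genotype with members called, Sycp2 higher (3.02 log2, adjusted p 0.0415) and Syce2 lower (-1.02, adjusted p 0.0377), beside 9.5% of genes. Tet1-/- and TKO had none called by edgeR with the filter in the full data, beside 6.36% and 8.64% of genes. In each, 3 of the 9 genes had an unadjusted p under 0.05, as did 4459 and 5273 of the 15435 genes. DESeq2 called Hormad2 higher in both (1.83 and 2.45 log2) and Sycp2 in TKO (2.67), beside 9.17% and 11.1% of genes. The edgeR fit without the filter also called Hormad2 higher in TKO (2.42 log2, adjusted p 0.0407, beside 6.95% of genes). All calls against Tet2-/- were lost when either Tet2-/- clone of that day was left out, which leaves 1 Tet2-/- library. The calls over all genes dropped too in those fits, to between 0.953% and 2.36% at D0 and between 0.0126% and 1.93% at D6. Leaving out 1 library moved Sycp2 between 2.77 and 3.21 log2 in DKO at D6, but at D0 between 1.48 (without Tet2_KO_3.11) and 3.28 (without Tet2_KO_3.10) in Tet1-/- and between 1.87 and 3.67, for the same Tet2-/- clones, in DKO. Apart from Hormad2 in Tet1-/-, they were also lost without 1 or more clones of the other genotype, and Sycp2 also without WT clone O4.2 or either DKO clone at D0 (in Tet1-/-) or WT clone O4.13 at D6 (in DKO), with adjusted p-values up to 0.297.

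Of 32 other meiotic genes, 28 were in the tables and 25 were tested at D0 and 27 at D6. Rec114, which takes part in making meiotic double-strand breaks, measured 8.60 to 14.9 CPM in WT, 1.67 to 2.09 in Tet2-/- and 4.82 to 5.22 in TKO at D0. Smc1b, a meiotic cohesin subunit, measured 3.67 to 7.32, 0.847 to 0.939 and 1.46 to 1.52 CPM in the same groups, and Dazl, a germ cell RNA-binding protein, 11.8 to 27.6, 3.48 to 4.096 and 6.72 to 7.38 CPM. Fkbp6, which localizes to the synaptonemal complex, measured 1.86 to 3.28, 0.380 to 0.427 and 0.251 to 0.577 CPM. In Tet2-/- these 4 genes fell, with log2 changes of -2.68 (Rec114), -2.66 (Smc1b), -2.34 (Dazl) and -2.71 (Fkbp6) and adjusted p-values of 0.00222, 0.00243, 0.00465 and 0.00850, and none rose. In TKO the same 4 fell, with log2 changes of -1.23, -1.89, -1.42 and -2.65, together with Hsf2bp, a recombination factor (-1.37, adjusted p 1.91e-04). Smc1b alone fell in Tet1-/- (-2.10, adjusted p 0.0290), and none was called in DKO. These 4 of 25 genes in Tet2-/- and 5 of 25 in TKO stood beside 3.19% and 3.15% of all genes called, and the comparisons share the WT libraries of D0. The median change of the 25 genes was -0.23 log2 in Tet2-/- and in Tet1-/-, -0.08 in DKO and -0.01 in TKO.

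At D6, Hsf2bp was the one gene of this list called against WT, at 40.9 to 48.7 CPM in Tet2-/- and 6.66 to 23.99 CPM in WT (1.72 log2, adjusted p 0.0182), 1 of 27 beside 14.3% of all genes, 4.81% higher. From D0 to D6, 2 of 27 rose and 9 fell in WT (20.7% and 13.3% of all genes), with 3 and 5 for Tet1-/- (19.9% and 11.2%) and 2 and 6 for DKO (18.6% and 10.6%). In Tet2-/- 3 rose and none fell (12.7% and 6.44% of all genes), and in TKO 5 rose and 1 fell (16.8% and 8.63%). The effect of the knockout differed between the days for Hsf2bp in Tet2-/- (1.77 log2, adjusted p 0.0194) and for Hsf2bp (2.36), Dazl (3.35) and Stag3 (1.40) in TKO, 1 and 3 of 27 genes beside 8.68% and 3.58% of all genes. Stag3, a meiotic cohesin subunit, is named because it was one of few called.

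**Figure D5:**
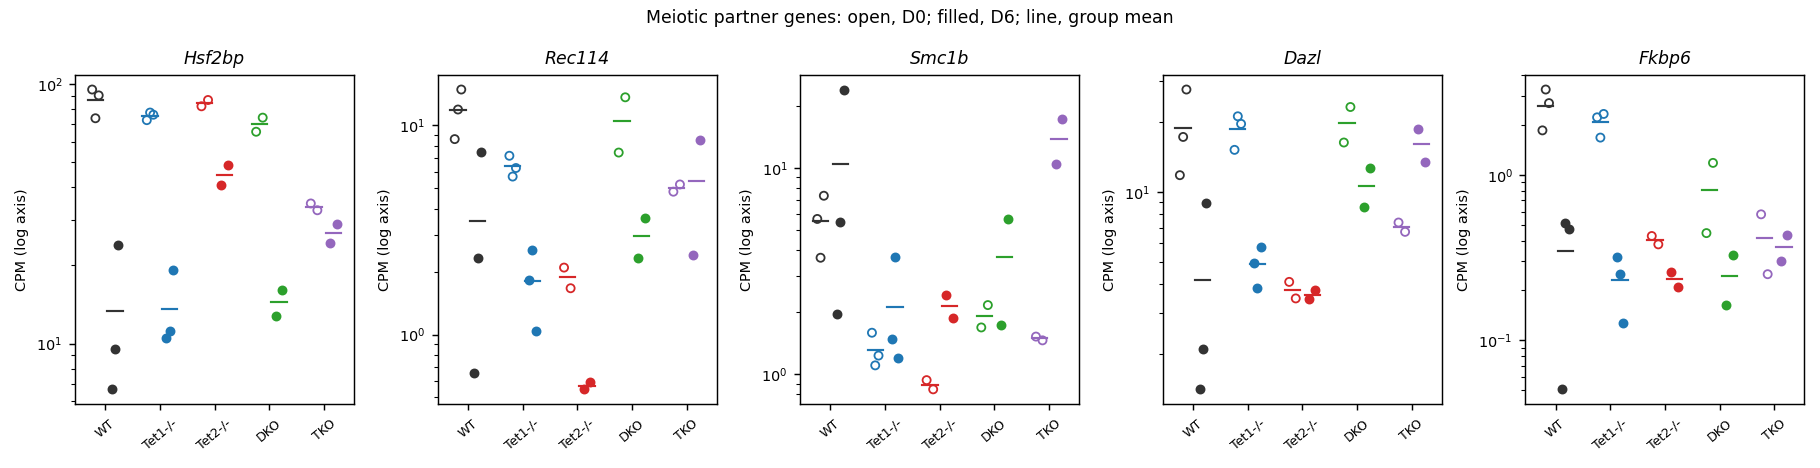
Level of 5 other meiotic genes in every library, in CPM on a log axis, by genotype, with open points for D0, filled points for D6 and short lines for group means. At D0 the Tet2-/- points of Rec114, Smc1b, Dazl and Fkbp6 lie below all WT points, and Hsf2bp at D6 is highest in Tet2-/-.

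Regulators known to hold meiotic genes low in ESC were measured too. Of 9 such genes (E2f6, Mga, Max, L3mbtl2, Pcgf6, Dnmt1, Dnmt3a, Dnmt3b and Uhrf1), 0 were called in any knockout against WT at either day by edgeR, with 1 to 7 of them at an unadjusted p under 0.05 per comparison. The 7 were in Tet2-/- at D6, where 6618 of 15435 genes had such a p. In Tet1-/-, DKO and TKO this edgeR fit called no gene of any kind at D6, while DESeq2 called 0.285%, 1.2% and 3.05% of genes. The effect of Tet2-/- differed between days for Dnmt3a, a de novo DNA methyltransferase (1.19 log2, adjusted p 0.0222). It is named because it was the only one, 1 of 9 beside 8.68% of all genes in either direction and 3.54% higher. Of 6 retinoic acid response genes, 3 were tested at D0, where 1 was called higher in TKO (3.15% of all genes in either direction), and 5 at D6, where 2 were called lower in Tet2-/- (9.45% of all genes). Crabp2, which carries retinoic acid, was the one higher in TKO at D0 (4.97 and 13.97 CPM, WT 2.67 to 3.67, 1.63 log2, adjusted p 0.0176). Cyp26a1, which degrades retinoic acid, measured 0.453 to 1.84 CPM in Tet2-/- and 22.8 to 123 CPM in WT at D6 (-5.96 log2, adjusted p 0.00556). At D6, Stra8 stood at 1.09 and 1.39 CPM in Tet2-/-, below WT clone O4.2 (3.30 CPM) and above the other WT clones (0.0504 and 0.414 CPM).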

How the data were processed

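Polyadenylated RNA of 24 ESC clone cultures was sequenced as paired-end reads with a non-stranded library kit. The authors mapped reads with STAR 2.5.1 to mm9 and deposited whole-number read counts per RefSeq line without normalization, with 31928 lines for 22926 symbols. The program that counted is named in 2 ways in the sources. The spike-in RNA added by the authors has no lines in these counts, so their scaling was not repeated.

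Genes were kept by filterByExpr (minimum count 10) and scaled by TMM (factors 0.918 to 1.10) in edgeR 4.0.16 (R 4.3.3), and quasi-likelihood models, in which each genotype and day had its own coefficient, were fitted separately for D0 (14456 genes) and D6 (15435 genes) and once over both days (15639 genes). Standard errors come from the same fits. Calls needed an adjusted p under 0.05 and an absolute log2 change over 1. Alternatives were DESeq2 1.42.0, library totals, no filter, the line with the most counts, blocks, 1 fit for all libraries and each library left out.

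The labels name the same clone at both days for 11 pairs; their deviations from group means correlated at 0.0613 to 0.164, and the clone pairs the samples. The genes and lists were chosen with earlier results of these data known. Named genes are the 10 members, list genes called against WT (at most 6 per list), and for each member the most alike other gene. Positions are from GENCODE vM1 (mm9) and upstream sequences from RefSeq (GRCm38.p6), which matched 9 symbols. The label of 1 DKO D6 library writes its clone without a point and was read as 5.12. One gene of the retinoic acid response list is not reported here.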

Additional observations from a re-analysis of the deposited data

Results flagged for a closer look

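The effect of a knockout against WT differed between D0 and D6, by the test of that difference, for Syce1 and Tex11 in Tet2-/- and TKO. The difference (D6 effect minus D0 effect) was 2.01 log2 for Syce1 and 2.33 log2 for Tex11 in Tet2-/-, and 2.402 and 2.59 log2 in TKO. Both genes were lower than WT in these knockouts at D0 and higher at D6 in mean CPM. The part of the pluripotency marker levels, which at D6 were 1880 to 2043 CPM in Tet2-/- and 645 to 1453 CPM in WT, was not tested.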

How the results depend on the processing

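Of 39 called values, 0 changed direction over 956 values from alternatives, 13 kept their call throughout, and 35 kept it under every alternative other than leaving out a library. DESeq2 raised the calls against WT from 3 to 5 at D0 and from 2 to 5 at D6, and those of the difference between days from 4 to 7. With DESeq2 the calls over all genes were higher too, at 3.05% in TKO and 1.2% in DKO against WT at D6, where edgeR called 0%, and at 10.5% (Tet2-/-) and 5.17% (TKO) for the difference between days, with 8.68% and 3.58% by edgeR. Calls against WT were 5 at D0 without a filter (2.76% of genes in Tet2-/-, 2.56% in TKO) and 5 at D6 in the fit of all libraries (16.3% of genes in Tet2-/- and 3.29% in TKO at D6, with 14.3% and 0% otherwise), and the clone block gave 7 for the difference between days and 26, in place of 20, for D6 against D0; it removed no call. Leaving out 1 library moved the calls against WT between 0 and 8 at D0 and between 0 and 13 at D6, those of D6 against D0 between 18 and 24, those of the difference between days between 0 and 10, and those against Tet2-/- (10) between 2 and 17. The cause was not tested. Lost calls were Tex11 in Tet2-/- at D0 (fit of all libraries) and Syce2 in DKO against Tet2-/- at D6 (library totals, -0.96 log2). A block for the number in the sample titles, which within a day is only a number (correlation of deviations -0.0646 to 0.239 at D0 and -0.1995 to 0.253 at D6), lost Tex12 in Tet2-/- at D0 (adjusted p 0.0503) and Sycp2 in Tet1-/- against Tet2-/- (adjusted p 0.0702). With 2 clones in 3 of the genotypes, each change rests on few clones, and what set the precision was not tested. Counts were low for Tex12 and Sycp2, and in WT at D6 also for Hormad1 (2, 9 and 19) and Stra8 (1, 13 and 91).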

Other observations

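The gene whose log2 CPM followed each member most closely over the 24 libraries was, for the axis genes, Pramel1 for Sycp2 (Pearson r 0.88), Stk17b for Sycp3 (0.94), Cenpi for Hormad1 (0.94) and Rec114 for Hormad2 (0.89). For the transverse filament and central element genes it was 4930447C04Rik for Sycp1 (0.92), Jade1 for Syce1 (0.97), Fam169b for Syce2 (0.91) and Ctcfl for Tex12 (0.87). Gucy2g was most alike to Tex11 (0.93) and Slc4a1 to Stra8 (0.93). Libraries share genotype, clone and day, and the values are descriptions. Of these genes, 4930447C04Rik and Rec114 are also in the list of other meiotic genes.

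Among the 11 clones sequenced at both days, the clone of a genotype with the highest level at D0 was also the highest at D6 in 5 of 5 genotypes for Sycp3 and Hormad2, in 4 for Syce1, in 3 for Hormad1, Tex12 and Stra8, in 2 for Sycp1, Sycp2 and Syce2 and in 1 for Tex11. In Tet1-/- this compares clones 2.1 and 2.4 only, and clone 2.2, sequenced at D6 alone, had the highest Hormad2 level of the Tet1-/- clones of that day (2.86 CPM). With 2 such clones in each knockout and 3 in WT, the same clone is often highest at both days by chance, and these counts were not tested.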
